A study of Mus musculus with 8 samples.

Results

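The xenobiotic enzymes of the mouse small intestine are described here through 4 gene superfamilies: the cytochromes P450 of families CYP1 to CYP4, the UDP-glucuronosyltransferases (UGT), the soluble glutathione S-transferases (GST) and the sulfotransferases (SULT). Members were taken by gene symbol from the protein-coding genes of the deposited table. This gave 143 genes, 79 CYP, 21 UGT, 22 GST and 21 SULT, of 22186 protein-coding genes and 46635 loci in all. Another 13 loci with such symbols were non-coding, stayed below 1 FPKM in every library and were not counted as members. The study sequenced RNA from small intestinal mesenchyme, the gut wall that remains once EDTA has detached the epithelium, in wild-type mice at 2 ages. There were 4 libraries from pups on postnatal day 14 (P14) and 4 from fetuses at E17.5, labelled as embryonic day 17. No strain is given in the sources used here, and no treatment other than the EDTA step, which both ages received. The design text speaks of 4 mice per age, but no label ties a library to an animal, and a p-value here speaks of the spread among the libraries alone, part or all of which may be technical.

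These enzymes clear foreign and endogenous small molecules in steps. Cytochromes P450, which draw electrons from P450 reductase, oxidise a compound (phase I). The transferases then attach glucuronic acid, glutathione or sulfate to it (phase II), which makes it soluble and ready for export. In the gut most of this capacity lies in the absorptive cells of the epithelium, where the nuclear receptors PXR and CAR, the factor HNF4A and the aryl hydrocarbon receptor control many of the genes, while some P450s and GSTs are typical of stromal, muscle or nerve cells.

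Values are FPKM, reads divided by gene length and by library size on the authors' scale, so levels can be compared between genes. Between 17702122 and 18474346 reads were assigned to genes in each P14 library and between 16660998 and 19496632 in each E17.5 library. P14 replicate 1 stood apart. Over the tested genes its correlations with P14 replicates 2 to 4 were 0.780 to 0.873, while those 3 correlated at 0.956 to 0.974 among themselves and the E17.5 libraries at 0.974 to 0.987. Epcam, a surface protein of epithelial cells, had 1228, 8.46, 118 and 33.5 FPKM in P14 replicates 1 to 4, against 0.683, 1.73, 0.844 and 1.32 FPKM in the 4 E17.5 libraries. The P14 libraries thus differed widely in epithelial RNA, and each held more than any E17.5 library. Epcam is itself 1 of the 10 pan-epithelial markers, and all the others followed it over the P14 libraries. The summed level of the 10, Epcam included, was 4962, 125, 676 and 241 FPKM at P14, against 31.6 to 53.0 FPKM at E17.5. Most markers of the wall went the other way. Of the 7 smooth muscle markers, 6 were wall genes by the sorting described below, as were 4 of the 5 mesothelium markers. The other mesothelium marker, Krt19, is also a pan-epithelial marker and followed Epcam. In P14 replicate 1 the median marker was at 0.316 of the mean of the other P14 libraries for smooth muscle, 0.367 for fibroblasts, 0.299 for neurons and glia, 0.499 for endothelium and 0.151 for mesothelium. Leukocyte markers were at 1.56. Liver is a large source of these enzymes, but of the 9 liver markers Alb, Apoh, Ahsg, Tat and Serpina1a stayed at or below 0.294 FPKM in every library, and the other 4 (Cps1, Fgb, Serpina1b and Ttr, at 7.82 to 294 FPKM in P14 replicate 1) followed Epcam. In bulk tissue fewer cells of a type and less RNA per cell cannot be told apart, which holds for every level given here. For that reason each comparison of the ages is given with and without P14 replicate 1.

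Of the 143 members, 46 had no read in any library, which allows up to 3 reads per library (counting error only). A further 37 were detected below 1 FPKM, and 60 reached 1 FPKM in at least 1 library. The summed level of all members was 1568, 464, 521 and 416 FPKM in P14 replicates 1 to 4, against 339, 325, 289 and 310 FPKM in E17.5 replicates 1 to 4. The number of members at 1 FPKM or more was 59, 30, 43 and 35 in the P14 libraries, against 27 to 29 in the E17.5 libraries, and 16 members reached 1 FPKM in P14 replicate 1 alone. P14 replicate 1 had the highest sum and count. P14 replicate 2, the P14 library with the least Epcam, had the count nearest to the fetal ones, and P14 replicate 4 the sum nearest to the fetal sums.

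**Figure D1:**
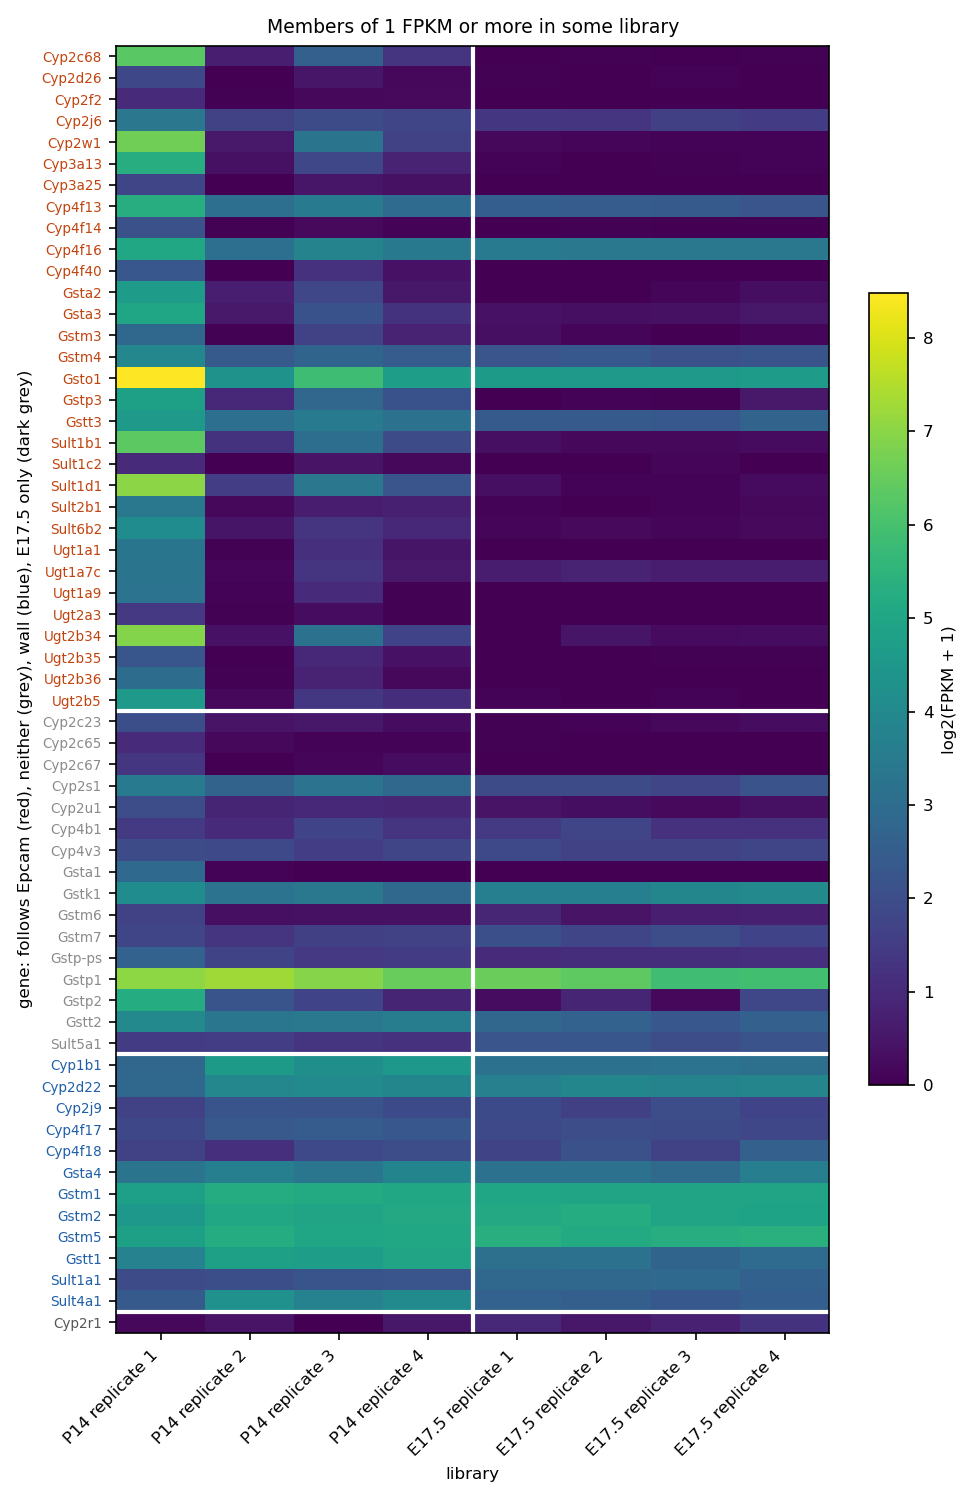
Level of the 60 members that reached 1 FPKM in some library, as log2(FPKM + 1) by library, with P14 libraries left of E17.5 libraries. Rows are grouped by class: the 31 members that follow Epcam at P14 are bright in P14 replicate 1 and dim in P14 replicate 2, 11 of the 12 wall members are lower in P14 replicate 1 than in any other P14 library (Cyp4f18 is the exception), and the bottom row is Cyp2r1, which reached 1 FPKM at E17.5 only.

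Members were then sorted by how they were distributed over the 4 P14 libraries, as a description with no test. A member was said to follow Epcam when its log2(FPKM + 1) correlated with that of Epcam at 0.9 or more. Its highest P14 level also had to be at least 1 FPKM, and P14 replicate 1 at least 2 times the mean of the other P14 libraries. It was called a wall member when P14 replicates 2 to 4 averaged at least 1 FPKM and P14 replicate 1 lay below that mean. Of the 59 members that reached 1 FPKM at P14, 31 (52.5%) followed Epcam, 12 (20.3%) were wall members and 16 (27.1%) met neither description. Of 13810 protein-coding genes at that level, 13.96% followed Epcam, 44.6% were wall genes and 41.4% met neither description. With 4 libraries the correlation is a coarse sorter, and following Epcam at P14 does not place a gene in the epithelium alone. Of the 31, 6 also reached 1 FPKM in E17.5 libraries, which held little Epcam. Cyp4f14 lay just inside the limit at 0.902 and Cyp2c67 just outside at 0.895. All 8 UGT genes that reached 1 FPKM at P14 followed Epcam, as did 11 of 23 CYP, 5 of 8 SULT and 7 of 20 GST genes. The wall class held 5 CYP, 5 GST and 2 SULT genes and no UGT. In the median member that followed Epcam, P14 replicates 2, 3 and 4 had 1.36%, 13.9% and 5.64% of the level in P14 replicate 1.

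**Figure D2:**
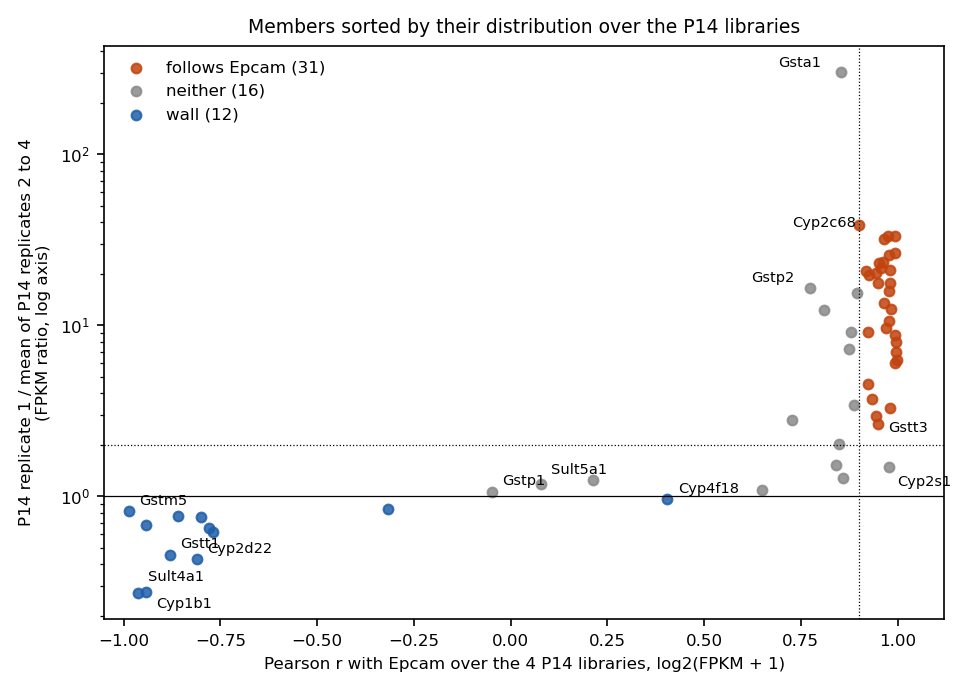
Each of the 59 members that reached 1 FPKM at P14, by its Pearson correlation with Epcam over the 4 P14 libraries (x axis) and by the ratio of P14 replicate 1 to the mean of P14 replicates 2 to 4 (y axis, log scale). Dotted lines mark the limits of 0.9 and 2, and the solid line marks equal levels; 31 members lie at upper right and 12 wall members lie below the solid line, with the correlation below 0 in all of them except Cyp4f18.

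Of the 4 members whose promoters are shown first, Cyp1b1 is a wall gene and Cyp2c68, Sult1d1 and Ugt1a1 follow Epcam. Each promoter is the 250 bases before the RefSeq start on GRCm38.p6, read 5′ to 3′ along the gene's own strand. Capitals mark the match to 1 short motif discussed at the end of the results, and matches to other motifs are unmarked. The aryl hydrocarbon receptor core is also in the windows of Cyp2c68 and Sult1d1, and the HNF1 half-site is also in that of Cyp2c68. In Cyp1b1 (chr17:79715062-79715311, minus strand) they mark CACGC, the core of the aryl hydrocarbon receptor element GCGTG on the other strand, 76 bases before the start. In Cyp2c68 (chr19:39741102-39741351, minus strand) they mark the HNF4 motif CAAAGTCCA at 77 bases. In Sult1d1 (chr5:87569007-87569256, minus strand) they mark the HNF1 half-site GTTAAT at 79 bases, and in Ugt1a1 (chr1:88211709-88211958, plus strand) the same half-site on the other strand at 41 bases.
Cyp1b1: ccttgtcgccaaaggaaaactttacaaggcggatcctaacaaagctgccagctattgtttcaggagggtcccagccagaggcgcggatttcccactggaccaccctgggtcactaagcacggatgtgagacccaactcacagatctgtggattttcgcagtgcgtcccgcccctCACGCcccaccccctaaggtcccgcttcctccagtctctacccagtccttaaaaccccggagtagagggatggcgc
Cyp2c68: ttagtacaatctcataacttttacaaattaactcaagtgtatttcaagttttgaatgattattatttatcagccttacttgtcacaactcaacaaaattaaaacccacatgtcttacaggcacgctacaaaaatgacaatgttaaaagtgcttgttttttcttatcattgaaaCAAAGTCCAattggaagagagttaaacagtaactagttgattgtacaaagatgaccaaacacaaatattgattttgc
Sult1d1: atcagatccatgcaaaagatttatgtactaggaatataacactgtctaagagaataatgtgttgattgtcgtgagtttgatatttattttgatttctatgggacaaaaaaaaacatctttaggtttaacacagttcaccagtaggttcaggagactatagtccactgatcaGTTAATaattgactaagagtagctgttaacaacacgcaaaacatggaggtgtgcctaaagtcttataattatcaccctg
Ugt1a1: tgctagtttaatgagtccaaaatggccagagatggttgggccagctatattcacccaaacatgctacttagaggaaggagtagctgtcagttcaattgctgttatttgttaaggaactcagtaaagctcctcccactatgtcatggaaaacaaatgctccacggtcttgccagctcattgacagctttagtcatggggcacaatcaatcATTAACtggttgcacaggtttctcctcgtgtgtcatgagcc

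The P450s that followed Epcam were members of the drug-, steroid- and fatty-acid-oxidising families. Cyp2w1, a P450 known from the developing gut and from colon tumours, had 98.4, 0.495, 8.53 and 2.10 FPKM in P14 replicates 1 to 4, against 0.136, 0.0821, 0.0502 and 0.0597 FPKM in E17.5 replicates 1 to 4. Cyp2c68, of the large Cyp2c cluster on chromosome 19, had 78.2, 0.631, 4.997 and 1.40 FPKM at P14, against 0, 0.0315, 0 and 0.0275 FPKM at E17.5. Cyp3a13, a CYP3A enzyme of the mouse intestine, had 37.8, 0.299, 2.52 and 0.754 FPKM at P14, against 0.0203 to 0.0707 FPKM at E17.5. In all these genes every P14 library lay above every E17.5 library, and the P14 libraries ranked as they did for Epcam. None of the 3 was tested, because fewer than 4 libraries reached 1 FPKM. The fatty-acid hydroxylases Cyp4f13 and Cyp4f16 behaved otherwise, since both were already expressed in the fetal libraries. Cyp4f16 had 33.2, 7.60, 12.9 and 9.66 FPKM at P14, against 9.93, 9.58, 9.46 and 9.46 FPKM at E17.5. Its P14 range enclosed the narrow E17.5 range, and the ages did not differ beyond the replicate spread (limma, log2 fold change 0.45 ± 0.386 SE, adjusted p = 0.423). Of the other P450s of the class, Cyp2j6 reached 9.24 FPKM in P14 replicate 1 and Cyp2d26, Cyp2f2, Cyp3a25, Cyp4f14 and Cyp4f40 reached 1.06 to 3.90 FPKM there.

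UGT genes made the clearest group that followed Epcam. Ugt2b34, a UGT2B enzyme, had 119, 0.342, 8.14 and 2.30 FPKM in P14 replicates 1 to 4, against 0, 0.397, 0.190 and 0.214 FPKM in E17.5 replicates 1 to 4. It was the most abundant UGT at P14, yet P14 replicate 2 lay within the fetal range. Ugt1a1, the enzyme that conjugates bilirubin, had 8.81, 0.0340, 1.24 and 0.388 FPKM at P14, against 1 read in all E17.5 libraries together. All 21 UGT genes summed to 180, 0.911, 15.7 and 4.94 FPKM at P14, against 0.609 to 1.22 FPKM at E17.5. Of that fetal sum, 0.554 to 0.752 FPKM came from Ugt1a7c, the UGT with the highest E17.5 level, which had 8.53, 0.117, 1.43 and 0.508 FPKM at P14. P14 replicates 2 and 4 were thus below all fetal libraries for this gene. The Ugt1a genes overlap each other on the same strand of chromosome 1 and share their last exons, and 57.2% of the 100-base windows of the Ugt1a1 transcript and 68.8% of those of Ugt1a7c also occur in another gene. The sources used here do not say how reads in shared exons were counted, so the split between Ugt1a genes is uncertain.

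Among the sulfotransferases, Sult1d1, which sulfates catecholamines in the mouse, and Sult1b1, which acts on thyroid hormones, were the most abundant at P14. Sult1d1 had 126, 1.88, 9.23 and 3.69 FPKM in P14 replicates 1 to 4, against 0.261, 0.0481, 0.0661 and 0.189 FPKM in E17.5 replicates 1 to 4. Sult1b1 had 80.2, 1.34, 7.31 and 2.87 FPKM at P14, against 0.258, 0.143, 0.131 and 0.178 FPKM at E17.5. The ages did not overlap in either gene, P14 replicate 1 lay far above the other P14 libraries, and neither gene passed the test over all 8 libraries on log2(FPKM + 1). These are the only 2 tested members below 1 FPKM in every E17.5 library, so they entered the test through P14 alone, and the values that follow describe them without adding support for a difference. The log2 fold changes were 3.34 ± 1.05 SE for Sult1d1 (limma, adjusted p = 0.0520) and 2.91 ± 0.980 SE for Sult1b1 (limma, adjusted p = 0.0636). Without P14 replicate 1 both passed, with smaller changes of 2.18 (limma, adjusted p = 0.00288) and 1.84 (limma, adjusted p = 0.00561). For Sult1d1 the threshold was also passed without P14 replicate 2 (limma, adjusted p = 0.0334), with a pseudocount of 0.1 (limma, log2 fold change 5.43, adjusted p = 0.0146), on TPM (limma, adjusted p = 0.0215), with FPKM per assigned read (limma, adjusted p = 0.0452) and without trend and robust moderation (limma, adjusted p = 0.0496). It was missed with limma voom on the recovered reads (adjusted p = 0.109), with a replicate block (limma, adjusted p = 0.0710) and with no filter on low values (limma, adjusted p = 0.104). Leaving out P14 replicate 3 or 4, or any 1 of the E17.5 libraries, also missed it (limma, adjusted p between 0.0606 and 0.120). Sult2b1, which sulfates cholesterol, Sult6b2 and Sult1c2 also followed Epcam, at 9.52, 16.3 and 1.02 FPKM in P14 replicate 1.

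Gsto1, a glutathione-dependent reductase of the omega class, had the highest single value of any member. It had 355, 19.3, 56.0 and 25.1 FPKM in P14 replicates 1 to 4, against 23.6, 22.6, 23.2 and 24.1 FPKM in E17.5 replicates 1 to 4. The fetal libraries lay within 1 narrow band, P14 replicate 2 lay below it and the other P14 libraries above it. The difference did not pass the test (limma, log2 fold change 1.23 ± 0.810 SE, adjusted p = 0.294; 0.35 without P14 replicate 1, adjusted p = 0.405). Gsta3, an alpha-class enzyme, had 30.8, 0.505, 3.40 and 1.35 FPKM at P14, against 0.320, 0.283, 0.291 and 0.462 FPKM at E17.5, with no overlap. The nearest libraries, P14 replicate 2 and E17.5 replicate 4, had 15 reads each, so that gap is within counting error. Gsta2 and Gstp3 reached 24.1 and 27.2 FPKM in P14 replicate 1. Gsta2 shares 35.0% of its windows with other gene models, so its level is uncertain.

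Of the 31 members that followed Epcam, 25 stayed below 1 FPKM in all fetal libraries, 5 of them with no fetal read, and 6 reached 1 FPKM at E17.5 (Cyp2j6, Cyp4f13, Cyp4f16, Gstm4, Gsto1 and Gstt3). The level of each was also expressed per 1000 FPKM of Epcam in the same library, a measure added after the values were seen. The ratio sets aside the amount of epithelial RNA only for a gene read from the epithelium alone. For a gene also expressed in other cells, it can fall as Epcam rises with no change in the gene's own level. Of the 31 members, 17 had at least 10 reads in the E17.5 libraries together. Relative to Epcam, 9 of these 17 were lower in every P14 library than in any E17.5 library, 8 overlapped and none was above. Of 1747 genes that followed Epcam and had at least 10 fetal reads, 87.5% were lower in every P14 library and 0.63% were higher. The 9 comprised the 6 genes that reached 1 FPKM at E17.5 and Gsta3, Sult6b2 and Ugt1a7c. For those 6 genes the lower ratio was not read as a fall in the epithelium. Gsto1 stood at 289, 2276, 474 and 748 per 1000 Epcam in the P14 libraries, against 13026 to 34638 in the E17.5 libraries. The 8 that overlapped were Cyp2w1, Cyp3a13, Gstm3, Gstp3, Sult1b1, Sult1d1, Sult2b1 and Ugt2b34. Each had only 10 to 45 fetal reads in all, so their fetal ratios are wide. Cyp2w1 stood at 80.1, 58.6, 72.1 and 62.6 per 1000 Epcam in the P14 libraries, against 72.4 in the pooled E17.5 reads (95% counting interval 46.0 to 110). The interval enclosed all 4 P14 values, but with another yardstick it did not: per 1000 Cdh1, Cyp2w1 stood at 612, 494, 389 and 326 at P14, against 122 in the pooled E17.5 reads (95% counting interval 78.2 to 184). That interval leaves out the spread between libraries. E17.5 replicates 1 to 4 stood at 351, 147, 59.4 and 68.4 per 1000 Cdh1, so the ages overlapped. Cyp2c68 stood at 63.7, 74.5, 42.3 and 41.8 per 1000 Epcam at P14, against 12.8 in the pooled E17.5 reads (95% counting interval 1.54 to 47.0, from 2 reads), so the interval reached the lower P14 values. Per 1000 Cdh1 the P14 values of Cyp2c68 were 217 to 629, against an E17.5 interval of 2.61 to 79.2, and per 1000 Vil1 they were 108 to 187, against 1.67 to 50.7, so all P14 values lay above the interval with either. The yardstick mattered. Relative to Cdh1, 3 of the 17 were lower in every P14 library and 14 overlapped, while 52.1% of the 1747 genes were lower and 3.09% higher. Relative to Vil1, 9 were lower and 7 overlapped, while 84.4% of the 1747 genes were lower and 1.49% higher. Sult1d1 was then higher in every P14 library, at 231 to 323 per 1000 Vil1, against 56.6 to 202 at E17.5.

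**Figure D3:**
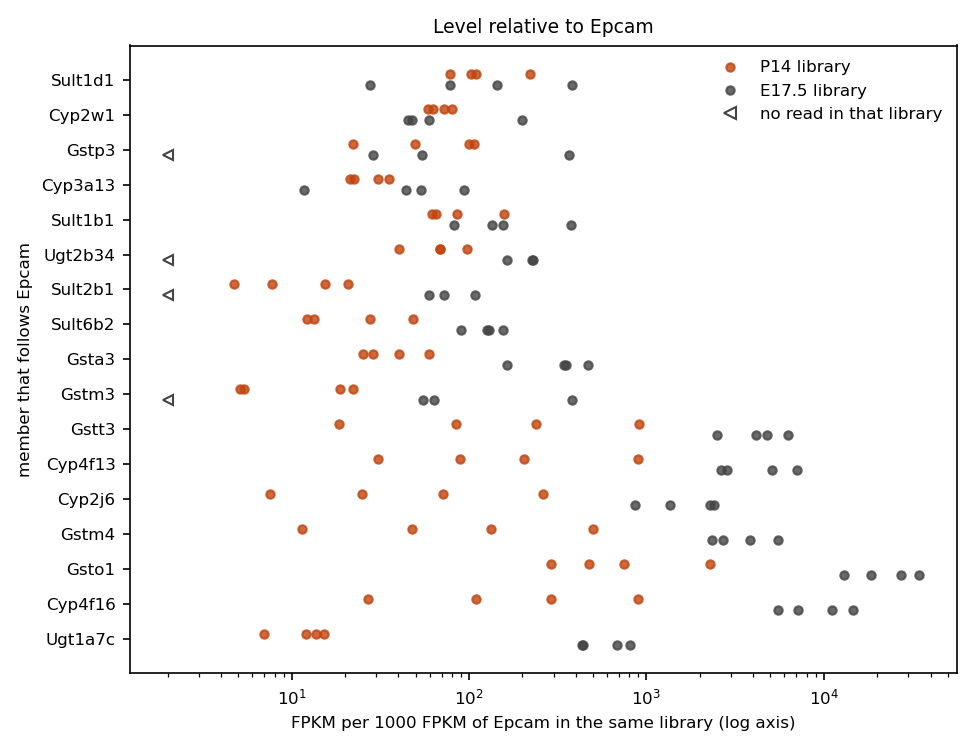
The 17 members that follow Epcam and have at least 10 fetal reads, as FPKM per 1000 FPKM of Epcam in the same library (log axis), with P14 libraries in red above E17.5 libraries in grey and triangles for libraries with no read. Of the 17, the 9 lower in every P14 library include Gsto1 at 289 to 2276 against 13026 to 34638, while the P14 values of Cyp2w1 at 58.6 to 80.1 lie among the fetal ones.

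Among members expressed at both ages, the theta-class GSTs, Gstp1 and Cyp2s1 rose at P14 and Sult1a1 and Sult5a1 fell, while Cyp1b1 and Sult4a1 missed the threshold with all libraries and passed it without P14 replicate 1. Of the 30 tested members, 5 rose at P14, 2 fell and 23 did not pass the threshold (limma, Benjamini-Hochberg adjusted p under 0.05), while 9.72% of all 14044 tested genes rose and 15.0% fell. Without P14 replicate 1, 15 rose and 3 fell, while 22.6% of all tested genes rose and 26.9% fell; the 7 genes called with all libraries were among these 18. The 11 others were Cyp1b1, Cyp2j6, Cyp4f13, Cyp4f17, Gstm1, Gstm4, Gstp-ps, Sult1b1, Sult1d1 and Sult4a1, which rose, and Gstk1, which fell. Since 2 tested members passed the filter through P14 alone and none through E17.5 alone, these counts and the medians below lean to P14 by construction. The median log2 fold change of tested members was 0.55, and 0.36 without P14 replicate 1, while that of all tested genes was 0.00 and -0.03. In 10 tested members every P14 library lay above every E17.5 library and in 2 every one lay below, while 15.6% and 20.4% of all tested genes did so. Leaving out P14 replicate 3 or E17.5 replicate 2, 3 or 4 left 3 members that rose.

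**Figure D4:**
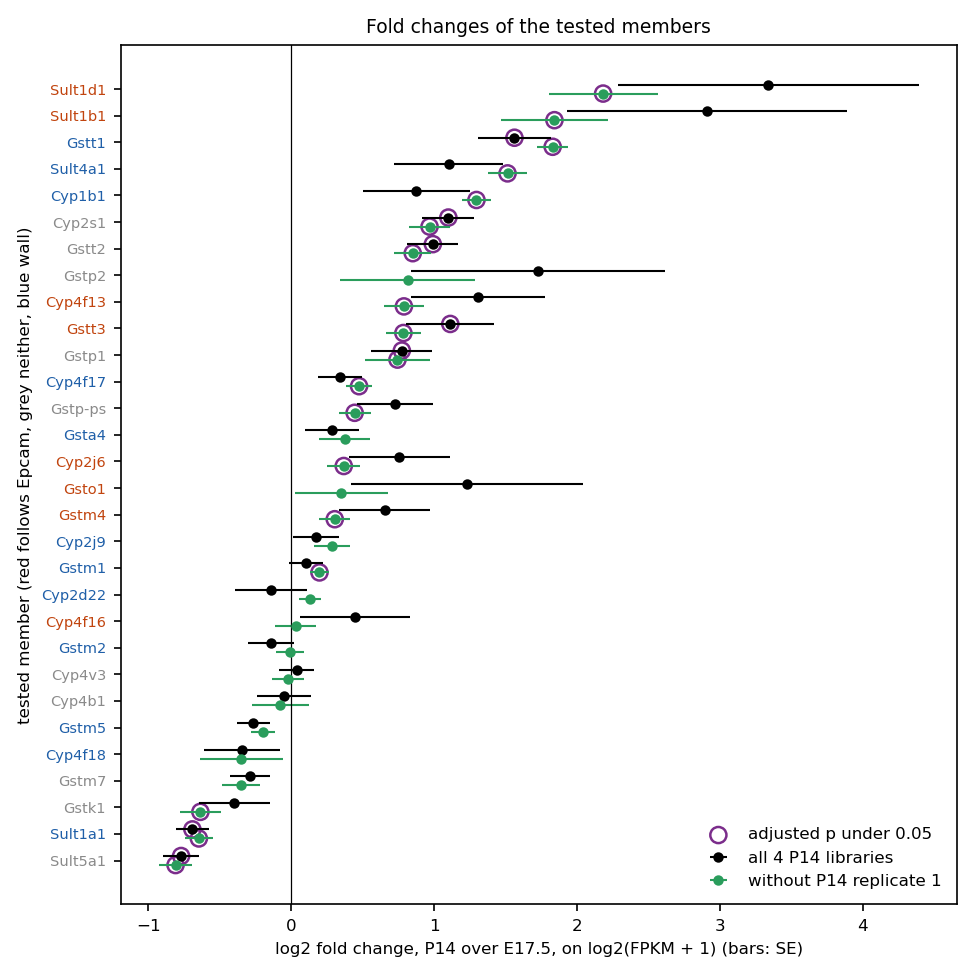
Log2 fold change, P14 over E17.5, on log2(FPKM + 1) for the 30 tested members, with all 4 P14 libraries (black) and without P14 replicate 1 (green); bars are SE and rings mark an adjusted p under 0.05. The 15 members that rose without P14 replicate 1 include Sult4a1 and Cyp1b1, whose bars shorten when that library is left out.

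Cyp1b1, a P450 of stromal and steroid-responsive tissues that oxidises oestrogens and retinoids, was the most abundant member of its family. It had 5.89, 23.7, 17.8 and 22.1 FPKM in P14 replicates 1 to 4, against 7.87, 7.97, 8.41 and 7.67 FPKM in E17.5 replicates 1 to 4. P14 replicate 1 lay below the fetal libraries and the other 3 well above them. With all libraries it did not pass the test (limma, log2 fold change 0.88 ± 0.378 SE, adjusted p = 0.125), and without P14 replicate 1 it rose (limma, log2 fold change 1.30 ± 0.0999 SE, adjusted p = 3.97e-05). Cyp1a1, the classic target of the aryl hydrocarbon receptor, was very low but did not share this pattern. It had 9, 13, 10 and 14 reads in P14 replicates 1 to 4, against 0, 0, 1 and 2 reads in E17.5 replicates 1 to 4, or at most 0.262 FPKM. The ages did not overlap, and P14 replicate 1 was like the other P14 libraries.

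Sult4a1, a sulfotransferase of nerve cells with no settled substrate, had 4.23, 18.4, 12.5 and 15.8 FPKM in P14 replicates 1 to 4, against 5.29, 4.90, 3.99 and 4.80 FPKM in E17.5 replicates 1 to 4. P14 replicate 1 lay within the fetal range and the others above it (limma, log2 fold change 1.10 ± 0.380 SE, adjusted p = 0.0679; 1.51 ± 0.134 SE without P14 replicate 1, adjusted p = 7.56e-05). The 6 neuron and glia markers were all wall genes, and they summed to 74.0, 315, 243 and 246 FPKM at P14, against 177 to 214 FPKM at E17.5. Their part in the level of Sult4a1 was not tested.

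All 3 tested genes of the theta class rose; the other, Gstt4, stayed below 1 FPKM. Gstt1, which conjugates small halogenated compounds, had 12.5, 26.9, 25.7 and 29.6 FPKM in P14 replicates 1 to 4, against 7.70, 7.88, 5.71 and 6.78 FPKM in E17.5 replicates 1 to 4. Every P14 library lay above every fetal one, with P14 replicate 1 nearest to them, and Gstt1 averaged 23.7 ± 7.62 FPKM at P14 and 7.02 ± 0.995 FPKM at E17.5 (SD, n = 4 each; limma log2 fold change 1.56 ± 0.258 SE, adjusted p = 0.00519). Gstt2 had 15.0, 9.11, 9.41 and 11.0 FPKM at P14, against 5.96, 5.33, 3.88 and 4.99 FPKM at E17.5, without overlap (limma, log2 fold change 0.99 ± 0.178 SE, adjusted p = 0.00722). Gstt3 had 22.6, 7.64, 10.002 and 8.001 FPKM at P14, against 4.29, 4.32, 4.04 and 5.49 FPKM at E17.5 (limma, log2 fold change 1.11 ± 0.309 SE, adjusted p = 0.0342). Gstt3 did not overlap between the ages either, but its adjusted p lay between 0.0660 and 0.0941 when P14 replicate 3 or any 1 of the E17.5 libraries was left out, and 23.9% of its windows occur in another gene model. These 3 neighbours on the minus strand of chromosome 10 (GRCm39, Gstt3 at 75609951 to 75617256, Gstt1 at 75619647 to 75634418 and Gstt2 at 75667676 to 75673253) fell into 3 different classes: Gstt1 was a wall gene, Gstt3 followed Epcam and Gstt2 met neither description.

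Gstp1, the pi-class enzyme and the most abundant member in the fetal libraries, had 130, 153, 122 and 90.5 FPKM in P14 replicates 1 to 4, against 91.5, 81.4, 57.2 and 58.9 FPKM in E17.5 replicates 1 to 4. It rose with an overlap of 1 library (P14 replicate 4, below E17.5 replicate 1) and a log2 fold change of 0.78 ± 0.213 SE (limma, adjusted p = 0.0329). Leaving out P14 replicate 2 or 3 or E17.5 replicate 2, 3 or 4 ended the call, with an adjusted p between 0.0578 and 0.0964 (limma), as did rescaling to TPM (limma, adjusted p = 0.0877). P14 replicate 1 lay within the range of the other P14 libraries. Its neighbour Gstp2, with which Gstp1 shares 52.8% of its windows, had 37.3, 3.65, 2.27 and 0.834 FPKM at P14, against 0.208, 0.842, 0.140 and 2.47 FPKM at E17.5. Reads of the 2 genes may be split unevenly, so both levels are uncertain.

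The mu-class enzymes were abundant at both ages. Gstm1 had 26.8, 36.9, 35.7 and 32.7 FPKM in P14 replicates 1 to 4, against 31.5, 30.1, 30.2 and 29.7 FPKM in E17.5 replicates 1 to 4. Gstm2 had 21.9 to 33.9 FPKM at P14, against 29.5 to 37.1 FPKM at E17.5, and Gstm5 had 27.5 to 36.8 FPKM at P14, against 35.4 to 40.8 FPKM at E17.5. The ages overlapped in each and none passed the test with all libraries (limma, log2 fold changes 0.11, -0.14 and -0.26, adjusted p = 0.537, 0.540 and 0.125). For Gstm1 the sign depended on the scale: it was -0.083 after rescaling to TPM, a scaling under which the median log2 fold change of tested genes shifted by -0.18. Without P14 replicate 1, Gstm1 rose by 0.20 on the log2 scale (limma, adjusted p = 0.0411). The whole mu class summed to 101, 113, 107 and 107 FPKM at P14, against 105 to 113 FPKM at E17.5. Within this cluster on chromosome 3, Gstm1, Gstm2 and Gstm5 were wall genes, Gstm3 and Gstm4 followed Epcam, and Gstm6 and Gstm7 met neither description. Gsta4, the alpha-class enzyme that detoxifies lipid aldehydes, was a wall gene too, with 8.48, 11.6, 8.97 and 13.3 FPKM at P14, against 8.16, 7.87, 6.66 and 11.4 FPKM at E17.5 (limma, log2 fold change 0.29 ± 0.190 SE, adjusted p = 0.298).

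Cyp2d22 showed how 1 library can set a direction. It had 6.17, 14.03, 15.5 and 13.8 FPKM in P14 replicates 1 to 4, against 12.1, 13.9, 12.9 and 13.4 FPKM in E17.5 replicates 1 to 4. P14 replicate 1 lay far below the other 7 libraries, and P14 replicate 3 was the highest of all. The log2 fold change was -0.14 ± 0.254 SE with P14 replicate 1 (limma, adjusted p = 0.709) and 0.13 ± 0.0771 SE without P14 replicate 1 (limma, adjusted p = 0.177). Gstk1, a GST of mitochondria and peroxisomes, had 16.3, 8.31, 9.52 and 6.24 FPKM at P14, against 11.6, 11.5, 13.7 and 14.9 FPKM at E17.5. P14 replicate 1 lay above the fetal range and the other P14 libraries below it, so Gstk1 passed only without P14 replicate 1 (limma, log2 fold change -0.40, adjusted p = 0.274; -0.63 without that library, adjusted p = 0.00677). The remaining wall genes, Cyp2j9, Cyp4f17 and Cyp4f18, had 1.19 to 4.54 FPKM at P14, against 2.02 to 5.10 FPKM at E17.5. Cyp4f17 rose without P14 replicate 1 (limma, log2 fold change 0.48, adjusted p = 0.00319).

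**Figure D5:**
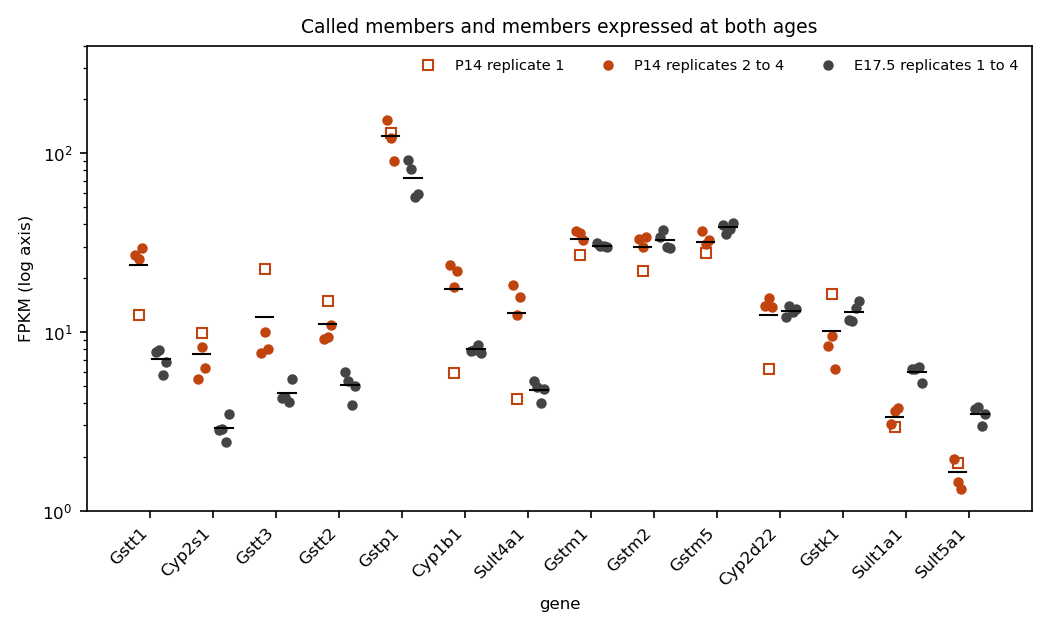
FPKM (log axis) of 14 members that were called or were expressed at both ages, with P14 left of E17.5 for each gene, open squares for P14 replicate 1, circles for the other libraries and bars for the mean of each age. The open square lies below the other P14 libraries for Gstt1, Cyp1b1, Sult4a1, Sult1a1, the 3 Gstm genes and Cyp2d22. It lies above them for Cyp2s1, Gstt3, Gstt2 and Gstk1.

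Cyp2s1, a P450 of epithelia that acts on retinoids and lipid mediators, had 9.92, 5.48, 8.28 and 6.26 FPKM in P14 replicates 1 to 4, against 2.82, 2.85, 2.41 and 3.48 FPKM in E17.5 replicates 1 to 4. The ages did not overlap and the gene rose, averaging 7.48 ± 2.01 FPKM at P14 and 2.89 ± 0.442 FPKM at E17.5 (SD, n = 4 each; limma log2 fold change 1.10 ± 0.183 SE, adjusted p = 0.00527). Its P14 libraries ranked as for Epcam (r = 0.978), but P14 replicate 1 held only 1.49 times the mean of the others, so it met neither description. It was the only P450 that passed with all libraries. Both members that fell were sulfotransferases. Sult1a1, the main phenol sulfotransferase, had 2.94, 3.07, 3.60 and 3.75 FPKM at P14, against 6.23, 6.18, 6.40 and 5.19 FPKM at E17.5 (limma, log2 fold change -0.69 ± 0.114 SE, adjusted p = 0.00509). Sult5a1, a little-studied sulfotransferase, had 1.85, 1.94, 1.45 and 1.32 FPKM at P14, against 3.72, 3.82, 2.97 and 3.46 FPKM at E17.5 (limma, log2 fold change -0.77 ± 0.125 SE, adjusted p = 0.00485). In both genes every P14 library lay below every fetal one, and P14 replicate 1 was within the range of the other P14 libraries for Sult5a1 and only just below it for Sult1a1. Cyp2r1, which makes 25-hydroxyvitamin D, was too low to test, with 0.123, 0.377, 0 and 0.449 FPKM at P14, against 0.955, 0.462, 0.725 and 1.35 FPKM at E17.5, again without overlap. The nearest libraries, P14 replicate 4 and E17.5 replicate 2, had 15 and 14 reads, so that gap is within counting error.

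Of the other members that met neither description, Cyp2u1, a P450 that hydroxylates long-chain fatty acids, had 2.99, 0.832, 0.905 and 0.871 FPKM in P14 replicates 1 to 4, against 0.357, 0.240, 0.173 and 0.299 FPKM in E17.5 replicates 1 to 4. Every P14 library lay above the fetal ones, with P14 replicates 2 to 4 close together although their Epcam levels were not. Cyp2c23, which makes epoxides of arachidonic acid, had 3.14, 0.369, 0.455 and 0.211 FPKM at P14, against 0.0234 to 0.203 FPKM at E17.5, and Gstm6 had 2.17, 0.283, 0.306 and 0.299 FPKM at P14, against 0.363 to 0.896 FPKM at E17.5. For Gstm6 the fetal libraries thus lay above all P14 libraries except replicate 1. Gsta1 was read almost only in P14 replicate 1, at 6.46 FPKM, and 81.8% of its windows occur in other gene models. Cyp4b1, Cyp4v3 and Gstm7 had 1.001 to 2.90 FPKM at P14, against 1.31 to 3.15 FPKM at E17.5, overlapped between the ages and did not pass the test.

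Many members known from liver were absent or nearly so. The 46 with no read included Cyp1a2, 6 of the 9 Sult2 genes and 24 of the 47 CYP2 genes, among them Cyp2c29 and Cyp2c37. Cyp2e1, Cyp3a11 and Cyp4a14 were detected at no more than 0.0405, 0.208 and 0.0161 FPKM. No UGT3 gene exceeded 0.0229 FPKM and neither Sult3 gene had a read. GST was the only superfamily with every gene detected, and 20 of its 22 genes reached 1 FPKM.

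Of 53 partner genes of these enzymes (cofactor suppliers, receptors, transporters and neighbouring enzymes), 43 were tested, 4 rose, 4 fell and 35 did not pass; without P14 replicate 1, 12 rose and 11 fell, and without E17.5 replicate 3 only 2 rose. Over all tested genes 9.72% rose and 15.0% fell, and 22.6% and 26.9% did without P14 replicate 1, so the partners' share of rises (4 of 43) was near the background. Por, the P450 reductase, had 29.2, 20.1, 23.1 and 21.5 FPKM in P14 replicates 1 to 4, against 22.3, 23.1, 16.4 and 16.7 FPKM in E17.5 replicates 1 to 4. It did not pass the test (limma, log2 fold change 0.25 ± 0.164 SE, adjusted p = 0.291), and its P14 and E17.5 ranges overlapped. Fmo2, a flavin monooxygenase, had 5.73, 30.5, 28.6 and 22.8 FPKM at P14, against 1.81, 2.49, 1.25 and 2.09 FPKM at E17.5 (limma, log2 fold change 2.77 ± 0.472 SE, adjusted p = 0.00585). Ephx1, the microsomal epoxide hydrolase, had 8.04, 12.7, 13.0 and 13.1 FPKM at P14, against 3.12, 3.97, 2.40 and 2.97 FPKM at E17.5 (limma, log2 fold change 1.62 ± 0.185 SE, adjusted p = 0.00142). Neither overlapped between the ages, and both were lowest at P14 in replicate 1, as wall genes are. Keap1, which holds the oxidative-stress factor NRF2 in check, rose by 0.59 (limma, adjusted p = 0.0158; 0.0556 without E17.5 replicate 3 and 0.0637 on TPM), and Cyb5r3 was the other that rose.

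Receptors of foreign compounds did not share 1 pattern. Ahr, the aryl hydrocarbon receptor, had 6.92, 5.76, 5.91 and 5.77 FPKM in P14 replicates 1 to 4, against 17.6, 18.1, 20.7 and 23.9 FPKM in E17.5 replicates 1 to 4. Every P14 library lay far below the fetal ones, and Ahr fell by 1.56 on the log2 scale (SE 0.123; limma, adjusted p = 0.000495). Tiparp, an enzyme induced by that receptor and known to restrain it, had 11.0, 4.52, 6.54 and 4.70 FPKM at P14, against 13.4, 11.5, 14.6 and 13.5 FPKM at E17.5. It fell by 0.96 (SE 0.244; limma, adjusted p = 0.0252), a call lost at adjusted p of 0.0517 to 0.0769 (limma) when any 1 library other than P14 replicate 1 was left out. The uptake transporter Slco2b1 fell by 0.88 (SE 0.137; limma, adjusted p = 0.00434), and the exporter Abcc3 was the fourth that fell. Ahr met neither description over the P14 libraries, while Tiparp followed Epcam, with P14 replicate 1 at 2.09 times the mean of the others. The nuclear receptor genes also followed Epcam. Nr1i2, which encodes PXR, had 38.3, 0.284, 4.41 and 1.26 FPKM at P14, against 0 to 0.107 FPKM at E17.5, and Nr1i3, which encodes CAR, had 6.57, 0.686, 1.33 and 0.545 FPKM at P14, against 0.0419 to 0.391 FPKM at E17.5. Hnf4a had 141, 1.82, 15.8 and 3.78 FPKM at P14, against 0.258 to 0.427 FPKM at E17.5 (limma, log2 fold change 3.34 ± 1.09 SE, adjusted p = 0.0576; 2.21 without P14 replicate 1, adjusted p = 0.0166). Hnf4a reached the 1 FPKM filter through P14 alone, so its test is given as a description, and it also passed without P14 replicate 2 (limma, adjusted p = 0.0305), with a pseudocount of 0.1 (limma, adjusted p = 0.0237) and on TPM (limma, adjusted p = 0.0299). It did not pass with limma voom on the recovered reads (adjusted p = 0.106), with a replicate block (limma, adjusted p = 0.0824) or with no filter on low values (limma, adjusted p = 0.114). Nor did it pass without P14 replicate 3 or 4 or any 1 of the E17.5 libraries (limma, adjusted p between 0.0603 and 0.128). In Nr1i2, Nr1i3 and Hnf4a the ages did not overlap, and P14 replicate 1 held most of the signal.

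Promoter windows from RefSeq on GRCm38.p6 were found for 120 of the 143 members (31 that follow Epcam, 8 wall genes, 12 that met neither description and 69 below 1 FPKM at P14), and for 27025 genes in all. Short motifs were searched on both strands of the 250 bases before the start. The HNF4 motif CAAAGTCCA was in 10 members (8.33%) and in 0.451% of all genes. The 10 were Cyp2c and Cyp3a genes, including near-identical pairs such as Cyp3a41a and Cyp3a41b, and only Cyp2c68 among them followed Epcam, while 7 were below 1 FPKM at P14. The HNF1 half-site GTTAAT was in 24 members (20%) and in 7.49% of all genes: in 9 of the 31 members that follow Epcam, 1 of 8 wall genes, none of the 12 that met neither description and 14 of the 69 low ones. A TATAAA box was in 38 members (31.7%) and in 14.3% of all genes, 31 of the 38 being low members. The aryl hydrocarbon receptor core GCGTG was in 22 members (18.3%) and in 30.9% of all genes. It was in 9 of the 31 members that follow Epcam, 4 of 8 wall genes, 2 of the 12 that met neither description and 7 of the 69 low ones. The antioxidant response element TGANNNNGC, the site bound by NRF2, was in 47 members (39.2%) and in 38.7% of all genes. The CDX2 motif TTTATNG was in 13 members (10.8%) and in 11.3% of all genes. A match says only that these letters occur in the window, and members of a gene cluster share much of their sequence by descent.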

How the data were processed

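RNA-seq of small intestinal mesenchyme was analysed from 1 deposited table of FPKM values per gene and library, made by the authors. The submitters' processing notes list, with no roles, the build GRCm39 and the tools CASAVA, fastp, HISAT2, featureCounts and DESeq2 (version 1.20.0). The sources used here do not say which step made the deposited FPKM values or whether reads were counted by strand. Gene positions are those of the table (GRCm39). Multiplying each deposited FPKM by gene length turned 100% of values into whole multiples of the library's smallest step (tolerance 1e-06), and so into reads. Judged by that step, the library size behind the authors' FPKM was 0.78 of the assigned reads for P14 replicate 1, and between 1.02 and 1.06 of them elsewhere, so a read of P14 replicate 1 weighs more. Intervals and limits from reads cover counting error only.

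Genes of at least 1 FPKM in at least 4 of 8 libraries were tested (14044 genes, 30 members) with limma 3.58.1 (R 4.3.3) on log2(FPKM + 1), trend and robust moderation, two-sided. P-values were adjusted by Benjamini-Hochberg over all tested genes and called under 0.05. The pseudocount of 1 understates fold changes of low genes. The fit was tested on values simulated from the means and spread of the E17.5 libraries. That test does not cover a group with a library as far apart as P14 replicate 1. No count test was run as the main result; limma voom on the recovered reads was an alternative, as were other pseudocounts, filters, scalings, a replicate block and leaving out each library. Same-numbered libraries of the 2 ages did not deviate together (correlations between -0.06 and 0.01), and the main test did not pair them. With 4 libraries per age, these correlations cannot exclude a shared batch behind the numbers.

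Named genes were, per family, the called members of largest change (at most 4) and the highest member at each age, every member of at least 5 FPKM in all E17.5 libraries, up to 3 called partner genes per direction, and Por, Ahr, Nr1i2, Nr1i3, Hnf4a and Epcam. Any further member was picked with its values in view. The members and lists were chosen with earlier results of these data known. Shared 100-base windows were counted between GENCODE M21 transcripts (GRCm38), where 142 of 143 members matched. Other tools were Python 3.11.15, numpy 2.4.6, pandas 2.3.3, scipy 1.17.1 and matplotlib 3.10.9.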

Additional observations from a re-analysis of the deposited data

Results flagged for a closer look

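Single libraries far from the other 3 of their age on log2(FPKM + 1) were looked for in 64 groups, and 6 were found. Chance alone flags about 1 in 20 groups. On this scale P14 replicate 1 was not flagged for Epcam, Gsto1 or Cyp2w1, although its FPKM lay far above the other P14 libraries there. In 4 of the 6 the library was P14 replicate 1, at 6.17 FPKM for Cyp2d22 (low), 12.5 FPKM for Gstt1 (low), 8.04 FPKM for Ephx1 (low) and 6.92 FPKM for Ahr (high). The other 2 were fetal: Ugt1a7c at 0.752 FPKM in E17.5 replicate 2 (high) and Sult1a1 at 5.19 FPKM in E17.5 replicate 4 (low).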

How the results depend on the processing

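P14 replicate 1 decided more calls than any processing choice tried. Leaving out 1 library at a time gave 3 to 15 members that rose and 2 to 3 that fell, 2 to 12 partner genes that rose and 3 to 11 that fell, and 617 to 3176 genes that rose and 1118 to 3782 that fell over the whole table; the highest counts all came without P14 replicate 1. With the replicate number as a block, 695 genes rose and 1049 fell over the whole table, 4 members rose (Gstt3 was lost, limma adjusted p = 0.0725) and 2 fell; Epcam also missed the threshold (limma, adjusted p = 0.0566). Rescaling to TPM gave 899 rises and 2678 falls, against 1365 and 2108, and moved the summed-level log2 ratio of the mu class to -0.19, of the theta class to 1.29 and of SULT5 to -1.11. A pseudocount of 0.1 let 7 partner genes rise. A correlation limit of 0.8 with Epcam left 9 members that met neither description. The direction turned for Cyp2d22, whose log2 fold change ran between -0.27 and 0.13 over the omissions of single libraries (0.13 without P14 replicate 1), and for Gstm1 on TPM (-0.083). Of the other comparisons of named genes with an alternative, 395 kept their side of the threshold, 32 lost a call and 13 gained one. The 395 include median-of-ratios scaling, which could change almost nothing, since its size factor was 0.999 in every library. The main limits are the 4 libraries per age, the few fetal reads of members that follow Epcam, and gene copies that share sequence.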
